A study of Mus musculus with 6 samples.

Results

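Collagens and laminins were measured as 2 families of matrix genes in the vascular and glial cells of the mouse amygdala. The genes were taken by symbol alone, as every gene named Col, a number, a and a number (collagen chains) or Lama, Lamb or Lamc with a number (laminin chains), which gave 44 collagen and 11 laminin chains, 55 of the 32285 genes counted. The data were 3 single-cell RNA-seq libraries of cells sorted as astrocytes with an antibody to ACSA-2, with CD11b, CD45 and O1, which mark microglia, leukocytes and oligodendrocytes, stained beside it. The labels call every cell an astrocyte, whereas the study's methods state that pericytes were taken out by *Pdgfrb* before its own analysis of astrocytes. By the labels all donors were wildtype, male, young adult mice of the strain C57BL/6N, whereas the study's methods name C57BL/6NCrSlc and the use of both sexes. The study's methods give 90 min from the start of the behaviour to the taking of the tissue. The tissue was dissociated in Actinomycin D, Triptolide and Anisomycin, which block transcription and translation. The 16 mice formed groups of 4, which were placed in the conditioning context without a shock (NoFC), fear conditioned (FC), conditioned and then left without recall (NoFR), or conditioned and returned for recall (FR). By the study, FR mice were recalled a day after conditioning, and NoFR mice stayed in their home cages and were also taken a day after it. FC mice were taken 90 min after conditioning, so that FC differs from NoFR and FR in the time since conditioning. Library 1 pooled 8 mice, 2 of each group, library 2 pooled 1 NoFC, 2 FC and 1 FR mice, and library 3 pooled 1 NoFC, 2 NoFR and 1 FR mice, so that each library is a pool of animals and not an animal. Oligonucleotide-tagged antibodies (hashtags) recorded the mouse of a cell.

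Cells were counted in 4 classes by the unique molecular identifiers (UMIs, 1 per captured transcript) of a few genes. Astrocytes had at least 20 UMIs of *Slc1a2* and *Slc1a3*, the glial glutamate transporters, and at most 3 of *Vtn* and *Rgs5*, which mark pericytes. Pericytes, the contractile cells embedded in the wall of capillaries, had at least 10 UMIs of *Vtn* and *Rgs5*, at most 5 of the transporters, and fewer *Acta2* and *Dcn* UMIs than the next classes. Acta2 cells had at least 5 UMIs of smooth muscle actin, and Dcn cells at least 3 UMIs of decorin, a proteoglycan typical of fibroblasts. Of 13546 barcodes, 8757 were astrocytes (3557, 2503 and 2697 in libraries 1, 2 and 3), 2211 pericytes (860, 649 and 702), 22 Acta2 cells (10, 5 and 7) and 41 Dcn cells (12, 15 and 14). A further 2517 barcodes fell in no class, and 2 counted as both Dcn cells and astrocytes. The UMIs of a class were summed within each library and scaled to a total of 1000000 UMIs of that class and library (CPM), so that n = 3 libraries throughout. The p-values then rest on the spread of the class sums over 3 pools of mice, after differences between libraries are taken out. In edgeR this spread is also drawn towards that of the other genes. A p-value therefore does not measure the spread of its own gene alone. All 4 classes share this spread, the small Acta2 and Dcn classes included. Standard errors (SE) of edgeR folds were taken as the absolute log2 fold change divided by the square root of the test's F statistic. For chains with few UMIs in a class they can be smaller than the counting error. Because UMIs are counted once per transcript end and not scaled to length, differences are tested between classes for the same gene.

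Basement membranes are thin sheets of matrix that wrap capillaries, smooth muscle and the pial surface of the brain and lie between endothelium, pericytes and the endfeet of astrocytes. Their frame is a laminin polymer, each laminin being a cross of an alpha, a beta and a gamma chain, and a collagen IV network, in which 3 chains wind into a helix. The *Col4a1* and *Col4a2* chains wind together in nearly all basement membranes, *Col4a3* and *Col4a4* join *Col4a5* in specialised ones such as that of the glomerulus, and *Col4a6* joins *Col4a5* around smooth muscle. In the brain the alpha 2 chain from *Lama2* is known as the laminin of the glial and mural side of the vessel, and the alpha 4 and alpha 5 chains from *Lama4* and *Lama5* are known from the vascular side, whereas the alpha 1 chain from *Lama1* is found at the pial surface and in the meninges. Fibrillar collagens such as those of *Col1a1*, *Col1a2* and *Col3a1* form the fibres of connective tissue and are classical products of fibroblasts.

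The 6 collagen IV genes lie in 3 head-to-head pairs, and the promoters of these pairs are shown because the pairs recur in the levels below. In the GENCODE vM21 annotation of GRCm38, *Col4a1* (chr8:11198423-11312826, reverse strand) and *Col4a2* (chr8:11312805-11449287, forward strand) start 21 bases apart and overlap by 22 bases. *Col4a4* (chr1:82448423-82586849, reverse) and *Col4a3* (chr1:82586921-82722059, forward) start 72 bases apart. *Col4a6* (chrX:141165403-141474076, reverse) and *Col4a5* (chrX:141475385-141689234, forward) start 1309 bases apart. The RefSeq windows on GRCm38.p6, from 250 bases before to 50 after the annotated start, run 5′ to 3′ on the strand of the named gene, with capitals marking motifs searched on both strands. These were GGGCGG, known as the GC box, and its other strand CCGCCC, then CCAAT, which with its other strand ATTGG is called the CCAAT box, and then TATAAA, the TATA box, with its other strand TTTATA.
*Col4a1*, chr8:11312777-11313076, reverse: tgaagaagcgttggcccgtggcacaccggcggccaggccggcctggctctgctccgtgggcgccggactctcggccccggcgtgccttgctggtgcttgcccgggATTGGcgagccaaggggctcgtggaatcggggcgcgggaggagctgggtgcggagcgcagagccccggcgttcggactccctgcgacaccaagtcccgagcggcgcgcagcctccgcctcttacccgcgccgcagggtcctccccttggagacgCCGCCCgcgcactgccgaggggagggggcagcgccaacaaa
*Col4a4*, chr1:82586800-82587099, reverse: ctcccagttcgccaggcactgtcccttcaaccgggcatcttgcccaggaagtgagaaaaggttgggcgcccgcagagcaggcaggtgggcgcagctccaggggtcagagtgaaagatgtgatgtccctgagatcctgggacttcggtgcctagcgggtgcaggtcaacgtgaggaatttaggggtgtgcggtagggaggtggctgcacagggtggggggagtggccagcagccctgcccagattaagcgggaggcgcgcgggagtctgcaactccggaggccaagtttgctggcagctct
*Col4a6*, chrX:141474027-141474326, reverse: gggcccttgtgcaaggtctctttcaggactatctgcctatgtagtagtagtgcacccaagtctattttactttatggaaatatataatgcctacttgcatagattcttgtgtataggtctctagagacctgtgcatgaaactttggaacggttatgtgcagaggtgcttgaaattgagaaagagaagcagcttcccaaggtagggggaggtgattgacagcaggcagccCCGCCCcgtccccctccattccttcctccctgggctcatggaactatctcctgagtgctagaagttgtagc
*Col4a5*, chrX:141475169-141475468, forward: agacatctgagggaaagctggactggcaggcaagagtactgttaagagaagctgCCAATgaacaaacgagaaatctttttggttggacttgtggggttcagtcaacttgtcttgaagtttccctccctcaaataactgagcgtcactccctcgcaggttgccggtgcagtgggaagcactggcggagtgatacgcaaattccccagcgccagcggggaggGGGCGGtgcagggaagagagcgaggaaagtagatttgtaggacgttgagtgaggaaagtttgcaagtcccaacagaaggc
The RefSeq start is at base 251 of each window, whereas GENCODE places that of *Col4a5* at base 217. The *Col4a1* window holds the starts of both partners, at base 251 for *Col4a1* and base 272 for *Col4a2* on the other strand, and the *Col4a4* window holds that of *Col4a4* at base 251 and that of *Col4a3* at base 179. The *Col4a1* window held 1 GC box and 1 CCAAT box, the *Col4a5* window 1 of each, the *Col4a6* window 1 GC box, and the *Col4a4* window none of the 3 motifs. A GC box was present in 35.7% of all 32851 RefSeq windows of this length, a CCAAT box in 37.4% and a TATA box in 13.6%. Of the 55 genes, 40 had a window in the RefSeq table.

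The classes were checked with markers that the rule did not use. Summed over 6 astrocyte markers, which include *Aqp4*, *Gja1* and *Aldoc*, astrocytes had 7066, 7106 and 7084 CPM in libraries 1, 2 and 3, and the other classes between 522 and 1799.6. Among the 6 was *Atp1b2*, the gene of the ACSA-2 antigen used for the sort. Its pooled level was 814 CPM in astrocytes, 674 in pericytes, 644 in Acta2 cells and 564 in Dcn cells. In pericytes *Aqp4*, *Gja1*, *Aldoc*, *Slc4a4* and *Gfap* had pooled levels of 5.29, 14.4, 23.9, 17.4 and 0 CPM. Over 7 pericyte markers, which include *Pdgfrb* and *Kcnj8*, pericytes had 8677 to 8927 CPM, Dcn cells 10265, 3686 and 3762, and Acta2 cells 3907, 6869 and 2465. Smooth muscle markers reached 5012, 7231 and 5486 CPM in Acta2 cells against 1562 to 1621 in pericytes, with *Cnn1* at 0 in both the Acta2 and the Dcn cells. Fibroblast markers reached 3307, 6849 and 10643 CPM in Dcn cells against 2456, 2317 and 2300.5 in pericytes. In Acta2 cells the same fibroblast list came to 7506, 904 and 2260 CPM with *Lum*, *Pdgfra* and *Slc6a13* at 0, and *Mgp* made up most of it. Of the 41 Dcn cells 37, and of the 22 Acta2 cells 21, also had at least 10 UMIs of *Vtn* and *Rgs5*, genes of the class rule itself. All 7 pericyte markers had lower pooled levels in both classes than in pericytes. *Kcnj8* and *Abcc9* had 83.5 and 147 CPM in Acta2 cells, 758 and 1074 in Dcn cells and 1058 and 1695 in pericytes. *Notch3* had 904, 614 and 1045 CPM in the same order of classes. Endothelial markers summed to 47.0 to 296 CPM in Dcn cells and 174 to 197 in pericytes, with *Cldn5* and *Ly6c1* at 0 in Dcn and Acta2 cells. Pooled levels in Dcn cells and pericytes were 40.7 and 0.176 CPM for *Cdh5* and 103 and 132 for *Flt1*. They were 28.2 and 28.9 for *Slco1a4*, 6.26 and 16.4 for *Kdr* and 0 and 1.32 for *Pecam1*. At least 3 endothelial UMIs were found in 10.8% of pericytes and 19.5% of Dcn cells. Neuronal and blood markers were at 0 in Acta2 and Dcn cells. Libraries 1 and 2 shared 8 cell barcodes, libraries 1 and 3 shared 7, and libraries 2 and 3 shared 3.

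A few cells carried much of the smallest classes. The Acta2 cell with the most UMIs, from library 3, had 41593 UMIs, 47.2% of all Acta2 cell UMIs of its library. It had 71 *Acta2* UMIs, 1 UMI of *Vtn* and *Rgs5*, 8.58% mitochondrial UMIs and 14436 UMIs of *Ttr*, the transthyretin gene of the choroid plexus, whose pooled level was 6.26 CPM in Dcn cells, 2.73 in pericytes and 1.39 in astrocytes. The calls of chains between Acta2 cells and pericytes or Dcn cells are therefore given with and without it. Marker sums, class sums, the lists of other genes and, unless stated, the levels of Acta2 cells include it. Among Dcn cells the 18 with 6 or more *Dcn* UMIs fell unevenly, 2, 7 and 9 in libraries 1, 2 and 3, and the 23 with 3 to 5 *Dcn* UMIs the other way, 10, 8 and 5. There were 40 barcodes at 2 *Dcn* UMIs, just below the limit, and 15 at exactly 3. For *Acta2* the limit lay in a sparse range, with 1 barcode at 4 UMIs and 2 at 5. More than 5 UMIs of the astrocyte transporters were found in 11 of the 41 Dcn cells and in 1 Acta2 cell. The median cell had 9891 UMIs among astrocytes, 4976 among pericytes, 6706.5 among Acta2 cells and 6548 among Dcn cells, and a single UMI was worth 0.0274 to 0.0368 CPM in astrocytes, 0.234 to 0.290 in pericytes, 11.4 to 36.2 in Acta2 cells and 7.84 to 12.3 in Dcn cells.

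Dcn cells devoted the largest share of their transcripts to the 55 genes and astrocytes the smallest. The chains summed to 6218, 7915 and 7939 CPM in the Dcn cells of libraries 1, 2 and 3, 4857, 4808 and 5089.6 in pericytes, 3827, 3145 and 2442 in Acta2 cells and 1008, 1049 and 1055 in astrocytes. The libraries of one class did not overlap those of another. Collagens alone gave 2143, 2153 and 2337 CPM in pericytes and 206, 208 and 227 in astrocytes, and laminins 2714, 2655 and 2753 and 802, 840.1 and 828. Without *Lama2* the astrocyte laminins came to 64.8, 64.5 and 67.4 CPM. At least 1 UMI was counted for 53 of the 55 genes in astrocytes, 48 in pericytes, 31 in Acta2 cells and 40 in Dcn cells, and a mean of at least 20 CPM was reached by 6, 21, 21 and 29. Named with their values below are the 34 genes that reached 20 CPM in at least 1 class, together with those that a comparison called. Of all genes, 12239 passed the filter on low counts, 38 of the 55 among them.

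**Figure D1:**
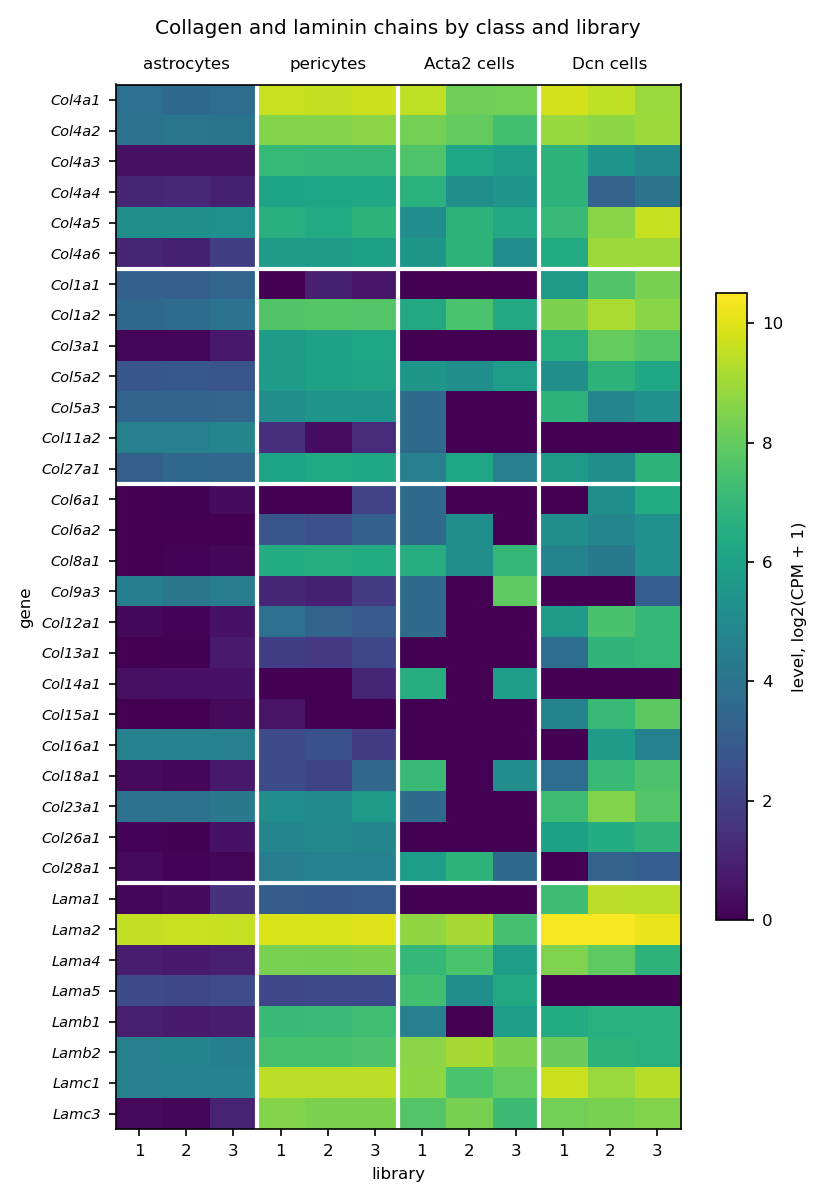
Level of the 34 genes that reached 20 CPM in at least 1 class, as log2(CPM + 1) on the colour scale, with 1 column per library (1 to 3) in each of the 4 classes, and rows in 4 blocks (collagen IV, fibrillar collagens, other collagens, laminins). Colours are compared along a row. The rows of *Col4a1*, *Col4a2*, *Lama4*, *Lamc1* and *Lamc3* are brighter in the 3 vascular classes than in astrocytes, and that of *Lama2* is bright in every column.

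Pericytes and astrocytes differed in nearly every chain that was tested. By edgeR's quasi-likelihood test on the summed counts, with the library as a block and Benjamini-Hochberg adjustment over 12239 genes, 29 of the 38 chains were higher in pericytes and 6 lower. Of all genes tested, 38.3% were called higher and 40.8% lower in the same comparison, so that the share of chains called higher exceeded the background and the share called lower did not. The median log2 fold change was 3.10 over the 38 chains and -0.03 over all genes. With DESeq2's size factors in edgeR the median of all genes moved to -0.32, the calls over all genes split into 3524 higher and 6414 lower in place of 4684 and 4998, and the chains into 28 and 7.

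All 6 collagen IV chains were higher in pericytes than in astrocytes. Folds given as times in this paragraph are ratios of mean CPM, without edgeR's scaling between classes. *Col4a1* stood at 776, 744 and 842 CPM in the pericytes of libraries 1, 2 and 3 and at 13.4, 11.2 and 12.5 in astrocytes, 63.6 times as much. Its scaled log2 fold change was 5.73 ± 0.28 (SE, edgeR adjusted p = 4.2e-24), which corresponds to a fold of 53.1. Its partner *Col4a2* had 369.9, 378 and 413 CPM in pericytes and 14.4, 16.2 and 16 in astrocytes, 24.9 times. The 2 libraries farthest apart within a class differed far less than the classes for both genes. *Col4a3* had 131, 127 and 127 CPM in pericytes against 0.384, 0.368 and 0.395 in astrocytes, and *Col4a4* 66.3, 72.8 and 74.9 against 1.12, 1.29 and 0.899. The astrocyte level of *Col4a3* was thus 0.298% of the pericyte level. The X-linked pair did not follow one pattern: *Col4a6* was 34.3 times as high in pericytes (55, 54.2 and 60.1 CPM against 1.1, 0.921 and 2.91), whereas *Col4a5* was 2.64 times as high (95.3, 84.1 and 108 CPM against 35.1, 36.1 and 37.7). *Col4a5* was the collagen IV chain with the smallest fold between these classes, at a log2 fold change of 1.13 ± 0.10 (SE, edgeR adjusted p = 1.63e-14), and it lost the call with DESeq2.

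**Figure D2:**
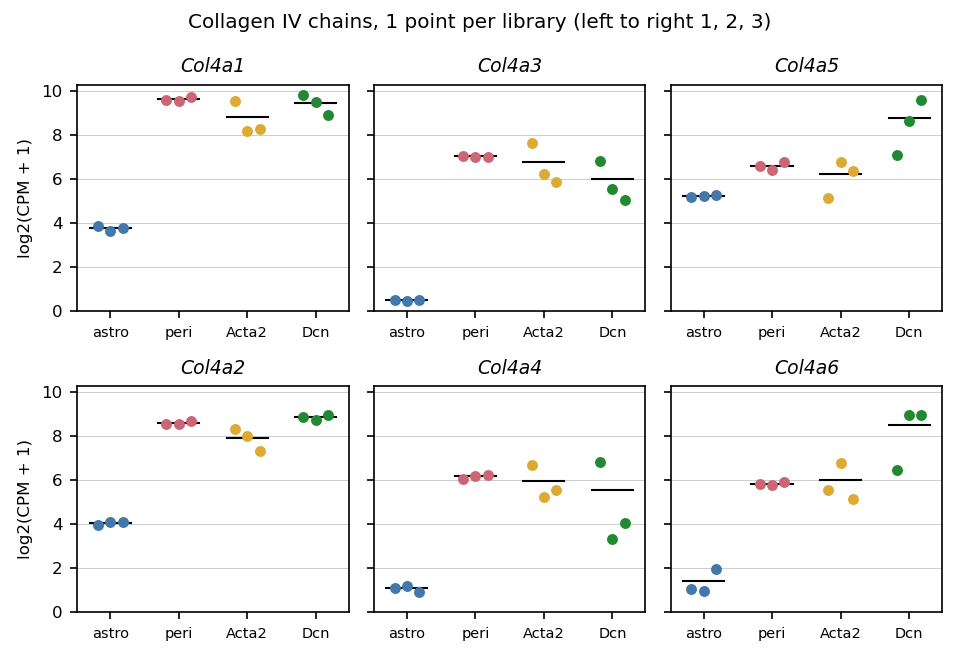
Level of the 6 collagen IV chains as log2(CPM + 1), with 1 point per library (left to right 1, 2 and 3) and a black line at the mean level, in astrocytes, pericytes, Acta2 cells and Dcn cells. Each column of panels is a head-to-head pair. *Col4a5* and *Col4a6* are both higher in Dcn cells than in the other classes in each library. In library 3, 1 Dcn cell holds 67 of the 96 *Col4a5* UMIs and 47 of the 63 *Col4a6* UMIs of the class.

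Of the laminins, pericytes and astrocytes both carried *Lama2* at high levels. The alpha 2 chain had 989.9, 961 and 1002 CPM in pericytes and 737, 776 and 760.2 in astrocytes, and the fold change did not pass the test (log2 0.11 ± 0.34 (SE), edgeR adjusted p = 0.781). Its direction depended on the scaling, since it was -0.18 with DESeq2's size factors, and with pericytes and astrocytes alone in the fit, an alternative chosen after seeing the data, it passed at 0.17 (edgeR adjusted p = 0.00487). *Lama4*, by contrast, had 336, 328 and 342 CPM in pericytes and 0.74, 0.663 and 0.863 in astrocytes, a log2 fold change of 8.5 ± 0.11 (SE, edgeR adjusted p = 2.07e-46). The beta and gamma chains went with *Lama4*. *Lamb1* had 139, 140.4 and 155 CPM against 0.85, 0.7 and 0.719, *Lamc1* 692, 698 and 705 against 22.8, 23.5 and 24.1, and *Lamc3*, a gamma chain, 372, 345 and 346 against 0.219, 0.147 and 1.01. *Lamb2*, the beta chain known from synapses and muscle, was the least different of these at 173, 172 and 191 CPM against 22.5, 25.1 and 22.2. In percent of the pericyte level, astrocytes had 0.129% for *Lamc3*, 0.225% for *Lama4*, 3.36% for *Lamc1*, 13% for *Lamb2* and 77% for *Lama2*. Low in both classes, *Lama5* had 3.75, 4.06 and 4.13 CPM in pericytes and 4.28, 3.9 and 4.57 in astrocytes and did not pass the test (edgeR adjusted p = 0.232).

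**Figure D3:**
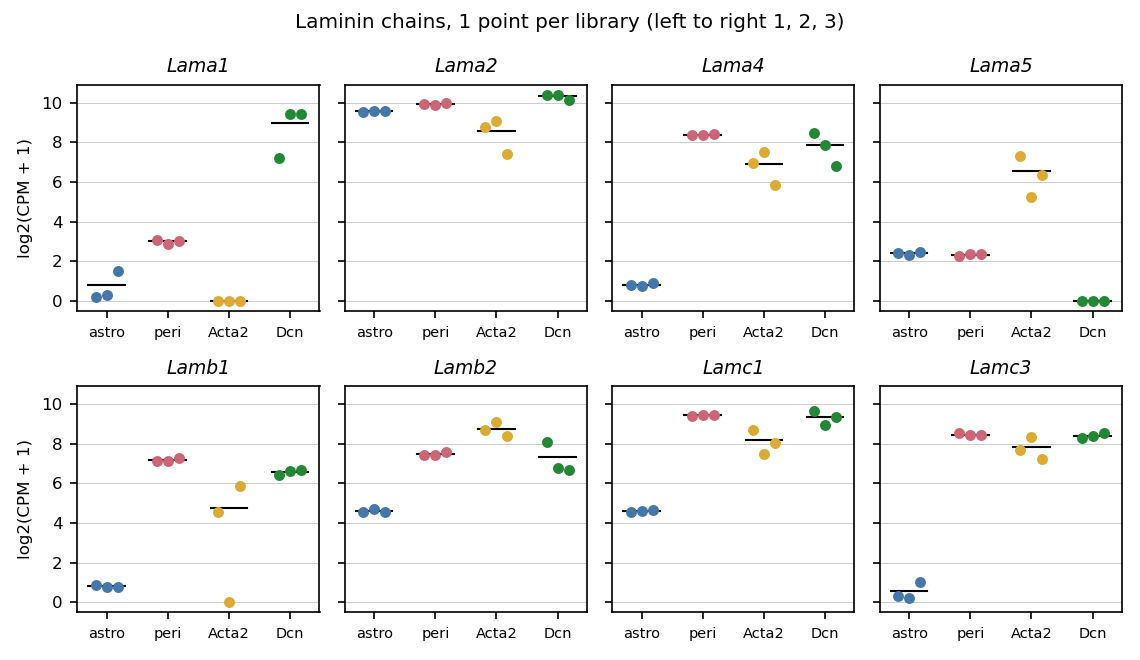
Level of 8 laminin chains as log2(CPM + 1), with 1 point per library (left to right 1, 2 and 3) and a black line at the mean level, in the 4 classes. *Lama2* is high in all 4 classes, *Lama1* is high in Dcn cells, and *Lama5* is highest in Acta2 cells and at 0 in Dcn cells.

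The shares of cells with a UMI gave the same order. Barcodes called as hashtag doublets were kept in these shares. With every cell thinned to 3000 UMIs, which left out 541 astrocytes and 157 pericytes, *Lama2* was detected in 89% of pericytes and 80.0% of astrocytes. *Col4a1* was detected in 85.5% of pericytes and 3.58% of astrocytes, *Lamc1* in 82.7% and 6.44%, *Lamc3* in 61.9% and 0.11%, *Lama4* in 58.5% and 0.231%, and *Col4a3* in 25.9% and 0.122%. Without thinning, the shares for *Col4a1* were 91.8% and 10.2% and those for *Lama2* 93.7% and 92.5%, at medians of 4976 UMIs per pericyte and 9891 per astrocyte.

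Fibrillar and other collagens split between the classes. *Col1a2* had 199, 209 and 208 CPM in pericytes and 10.3, 12 and 15 in astrocytes, and *Col3a1* 55.5, 63.2 and 70.2 and 0.11, 0.111 and 0.647, so that both were higher in pericytes (log2 fold changes 3.78 and 7.49). *Col1a1*, whose chain winds with that of *Col1a2* in collagen I, went the other way at 0, 0.87 and 0.551 CPM in pericytes and 8.28, 8.03 and 9.82 in astrocytes (log2 -4.53 ± 0.45 (SE), edgeR adjusted p = 2.22e-12). A *Col1a1* UMI was found in 4 of the 2211 pericytes, against 58.5% of them for *Col1a2*. The pericyte rule left out barcodes with at least 3 *Dcn* UMIs, and the astrocyte rule did not. Dcn cells held 68 *Col1a1* UMIs and pericytes 5, so that the pericyte level depends on this limit. A rule without it was not tested. *Col5a2* (55, 62.7 and 64.7 CPM in pericytes), *Col5a3* (35.4, 43.2 and 44.4) and *Col27a1* (67.7, 83.3 and 73.8) were higher in pericytes with log2 fold changes of 3.05, 1.83 and 2.71. *Col8a1*, a short-chain collagen of vessel walls, reached 90.1, 92.8 and 87.6 CPM in pericytes and 0.0274, 0.0737 and 0.144 in astrocytes, the largest fold of the 38 chains (log2 9.68 ± 0.20). That fold rested on 7 *Col8a1* UMIs in astrocytes, and its SE can be smaller than the counting error. *Col26a1* (27.2, 29.6 and 27 CPM) and *Col28a1* (20.4, 23.8 and 24 CPM) stayed at 0.0823, 0.0368 and 0.431 and 0.192, 0.0737 and 0.144 CPM in astrocytes.

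Astrocytes were higher than pericytes for 6 chains, all at low levels. They were *Col16a1* (23.2, 24.4 and 22.9 CPM in astrocytes, 4.21, 5.22 and 2.48 in pericytes), *Col11a2* (22.8, 23 and 26.4 and 1.64, 0.29 and 1.38), *Col9a3* (21.9, 16.9 and 20.1 and 1.17, 0.87 and 2.48), *Col1a1*, *Col11a1* (7.76, 7.4 and 7.08 and 0.702, 0.87 and 0.551) and *Lama3* (11, 8.21 and 9.89 and 0.234, 0 and 0.275). *Lama3*, the alpha chain of epithelial laminin, had the largest difference of the 6 (log2 -5.94 ± 0.47 (SE), edgeR adjusted p = 3.24e-15), and *Lamb3*, a beta chain of that laminin, failed the filter on low counts. It was called lower in pericytes without that filter, and also with pericytes and astrocytes alone in the fit. *Col9a3* and the *Col11* chains are known as collagens of cartilage. *Col23a1*, a transmembrane collagen, was at 14.3, 14.2 and 17.5 CPM in astrocytes and 34.7, 30.5 and 48.5 in pericytes, the smallest fold among chains called higher in pericytes together with *Col4a5* and *Col20a1*. Without a UMI in any of the 8757 astrocytes, *Col6a2* was at least 193-fold higher in pericytes (5.85, 4.93 and 8.26 CPM) against a floor of 3 UMIs over the class. Of the 36 chains in the 2 directions and *Lama2*, 31 kept their direction and side of the threshold in every alternative that tested them, and *Col4a5*, *Col6a1*, *Col20a1*, *Col23a1* and *Lama2* did not.

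**Figure D4:**
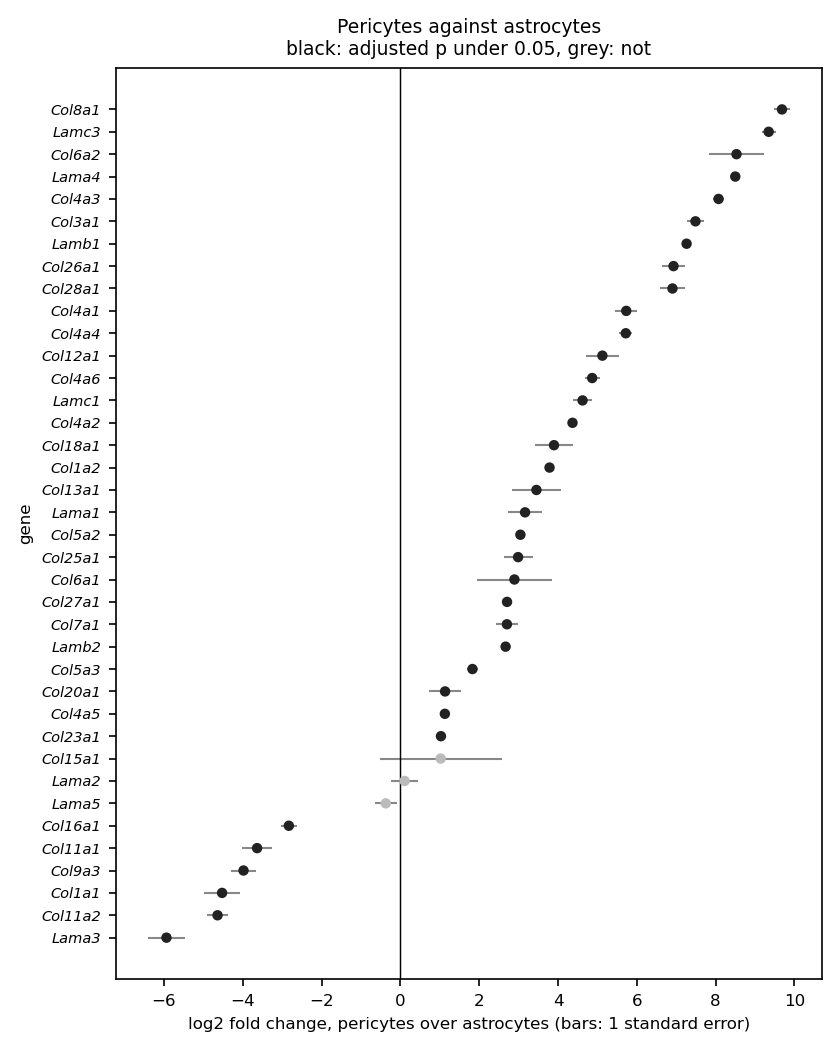
Log2 fold change of the 38 tested chains in pericytes over astrocytes from edgeR, with bars of 1 standard error, black for an adjusted p under 0.05 and grey otherwise, sorted by value. *Lama3* is at the lower end and *Col8a1* at the upper end, and 3 grey points mark the chains that did not pass. The point of *Col6a2* rests on no UMI in astrocytes and is no estimate of its fold. The bars are derived from the test statistic and can be smaller than the counting error for chains with few UMIs.

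Acta2 cells had less of most laminin chains than pericytes and more of 2 of them. By edgeR, 4 chains were higher than in pericytes and 8 lower, against a background of 4.44% of all genes called higher and 3.79% lower. The median log2 fold change was -1.12 over the 38 chains, or -0.65 with chains at 0 in Acta2 cells set at their bound and those at or under the floor left out, and -0.31 over all genes. With DESeq2's size factors the median of all genes was -0.11, the calls over all genes split into 657 higher and 338 lower in place of 544 and 464, and the chains into 4 and 5, with *Col1a2*, *Col4a2* and *Lamc3* no longer called. Without the Acta2 cell rich in *Ttr*, chosen for removal after seeing the data, 3 were higher and 6 lower. In that setting *Col9a3*, *Col1a2*, *Col4a2* and *Lamc3* were not called, and *Col4a1* was called lower. Leaving out library 2 or library 3 gave 5 lower chains each. For the settings without that cell or without a library, calls over all genes are not given. Whether these changes are particular to the chains is therefore not shown.

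*Lamb2* and *Lama5* were the laminin chains that were higher in Acta2 cells. *Lamb2* had 410.0, 542 and 341 CPM in the Acta2 cells of libraries 1, 2 and 3 against 173, 172 and 191 in pericytes (log2 1.11 ± 0.23 (SE), edgeR adjusted p = 0.00067). *Lama5*, which is known from the basement membrane of endothelium and of arterial smooth muscle, had 159, 36.2 and 79.5 CPM against 3.75, 4.06 and 4.13 (log2 4.67 ± 0.57 (SE), edgeR adjusted p = 2.92e-08). Every Acta2 library exceeded every pericyte library for both genes, but for *Lama5* library 2 held only 1 UMI. Without hashtag doublets *Lama5* was not among the chains called higher. The *Lama5* signal came from 10 of the 22 cells and 22 UMIs, none of them in the *Ttr*-rich cell, without which library 3 stood at 151 CPM. Endothelial markers summed to 45.4 to 108 CPM in Acta2 cells and 174 to 197 in pericytes. In that order of classes, pooled levels were 9.83 and 132 CPM for *Flt1* and 9.83 and 16.4 for *Kdr*. They were 34.4 and 28.9 for *Slco1a4* and 4.91 and 1.32 for *Pecam1*. *Cldn5*, *Cdh5* and *Ly6c1* were at 0 in Acta2 cells, which allows up to 14.7 CPM, and at 5.38, 0.176 and 0.793 in pericytes. The part of endothelial RNA in the *Lama5* level was not tested. *Col18a1*, the collagen of endostatin, was higher too, at 137, 0 and 34.1 CPM against 4.45, 3.48 and 10.2, with no UMI in library 2 and the call lost without library 1 (log2 1.71, edgeR adjusted p = 0.621).

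The chains that fell included the alpha 2 and alpha 4 laminins. *Lama2* had 433, 542 and 170.4 CPM in Acta2 cells against 989.9, 961 and 1002 in pericytes (log2 -1.62 ± 0.41 (SE), edgeR adjusted p = 0.00526), and *Lama4* 125, 181 and 56.8 against 336, 328 and 342 (log2 -1.76 ± 0.33 (SE), edgeR adjusted p = 0.000131). Without the *Ttr*-rich cell, the library 3 levels were 323 CPM for *Lama2* and 108 for *Lama4*, and both calls held. *Lamb1* had 22.8, 0 and 56.8 CPM against 139, 140.4 and 155, and *Lamc1* 421, 181 and 261 against 692, 698 and 705. The beta 1 call was lost without library 1 and the gamma 1 call without library 2. Without the *Ttr*-rich cell, library 3 stood at 21.5 CPM for *Lamb1* and 452 for *Lamc1*, and both were still called lower. *Lamc3* at 205, 325 and 148 CPM, *Col4a2* at 319, 253 and 159 and *Col1a2* at 79.7, 181 and 79.5 were called lower with edgeR adjusted p of 0.045, 0.0488 and 0.0323 in that order, and each call was lost in several alternatives. *Col4a1* at 729, 289 and 307 CPM gave log2 -0.88 ± 0.29 (SE) and an edgeR adjusted p of 0.0504 that did not pass. It was called lower in most alternatives, but not with DESeq2's size factors, with DESeq2, or without library 2 or 3. *Col3a1* had no UMI in the 22 Acta2 cells and was at least 4.24-fold lower than in pericytes against the floor of 3 UMIs over the class.

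*Col9a3* shows how far 1 cell could carry a class. Its 11.4, 0 and 239 CPM in Acta2 cells gave a log2 fold change of 6.06 ± 0.76 (SE, edgeR adjusted p = 5.07e-08) over pericytes, but 21 of its 22 UMIs lay in the *Ttr*-rich cell. Without that cell the fold change was 1.76 (edgeR adjusted p = 0.713). The same cell held 11 of the 20 *Col8a1* UMIs, which was at 91.1, 36.2 and 125 CPM in Acta2 cells and close to the pericyte level (edgeR adjusted p = 0.95), and library 3 had no other *Col8a1* UMI. *Col4a3* (194, 72.3 and 56.8 CPM), *Col4a4* (103, 36.2 and 45.4), *Col4a5* (34.2, 108 and 79.5) and *Col4a6* (45.6, 108 and 34.1) did not pass the test against pericytes (edgeR adjusted p from 0.564 to 0.941), at 24, 14, 13 and 10 UMIs in all. *Col14a1*, a collagen associated with fibrils, had 91.1, 0 and 56.8 CPM in Acta2 cells, 0, 0 and 1.1 in pericytes and no UMI in Dcn cells, and failed the filter on low counts. It was called higher in Acta2 cells than in pericytes without that filter and without library 2. *Col28a1*, a collagen with von Willebrand A domains, had 56.9, 108 and 11.4 CPM in Acta2 cells and 20.4, 23.8 and 24 in pericytes (edgeR adjusted p = 0.467).

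Dcn cells had more of 16 chains than pericytes, 15 of them collagens, and less of 3. The background was 4.38% of all genes called higher and 1.66% lower. The median log2 fold change was 0.52 over the chains, or 0.86 with the chains at or under the floor left out, and -0.12 over all genes. DESeq2's size factors moved the median of all genes to 0.04, split the calls over all genes into 635 higher and 104 lower in place of 536 and 203, and the chains into 16 and 2. The count of higher chains rested on few cells. It was 17 without library 1, 10 without library 2, 11 without library 3, 10 without hashtag doublets and 6 without the 11 Dcn cells that had over 5 astrocyte transporter UMIs. The lower chains were 4, 0 and 1 without libraries 1, 2 and 3. Calls over all genes in these settings are not given, so the counts do not show whether the changes are particular to the chains.

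The fibrillar collagens *Col1a1*, *Col1a2* and *Col3a1* were higher in Dcn cells than in pericytes. *Col1a1* had 49.4, 199 and 329 CPM in the Dcn cells of libraries 1, 2 and 3 against 0, 0.87 and 0.551 in pericytes (log2 8.69 ± 0.53 (SE), edgeR adjusted p = 4.2e-17). *Col1a2* had 345, 578 and 392 CPM against 199, 209 and 208 in pericytes (log2 0.98, edgeR adjusted p = 0.000113). *Col3a1* had 98.7, 262 and 212 CPM against 55.5, 63.2 and 70.2 (log2 1.51, edgeR adjusted p = 0.000187). For all 3 genes library 1 was the lowest Dcn library, and it was the one with 2 of the 18 cells of 6 or more *Dcn* UMIs. *Col1a2* was not called without library 2. *Col3a1* was not called with DESeq2, without library 2 or without cells of over 5 astrocyte transporter UMIs. In the 30 Dcn cells of that last setting *Col3a1* had 39.2, 343 and 60.9 CPM in libraries 1, 2 and 3. *Col12a1*, a collagen that coats fibrils, had 49.4, 181 and 125 CPM against 13.3, 9.28 and 6.61, and *Col13a1*, a transmembrane collagen, 12.3, 117 and 125 against 2.81, 2.32 and 3.86. *Col15a1* and *Col18a1*, related collagens of the outer face of basement membranes, had 24.7, 136 and 227 and 12.3, 136 and 188 CPM against 0.468, 0 and 0 and 4.45, 3.48 and 10.2.

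Among collagen IV chains the X-linked pair stood apart in Dcn cells. *Col4a5* had 136, 398 and 752 CPM against 95.3, 84.1 and 108 in pericytes (log2 2.16 ± 0.22 (SE), edgeR adjusted p = 2.91e-10), and *Col4a6* 86.4, 497 and 494 against 55, 54.2 and 60.1 (log2 2.6 ± 0.27 (SE), edgeR adjusted p = 2.16e-10). *Col4a1* (901, 714 and 478 CPM) and *Col4a2* (469, 425 and 502 CPM) did not pass (edgeR adjusted p = 0.589 and 0.742). *Col4a3* was lower at 111, 45.2 and 31.3 CPM (log2 -1.29, edgeR adjusted p = 0.014), and *Col4a4* at 111, 9.03 and 15.7 CPM did not pass (edgeR adjusted p = 0.238). *Col4a3* was not called with DESeq2, without library 2 or 3, or without hashtag doublets. Nor was it called without barcodes of more than 1 class or without cells of over 5 astrocyte transporter UMIs. A single Dcn cell of library 3 held 67 of the 151 *Col4a5* UMIs, 47 of the 125 *Col4a6* UMIs and 42 of the 177 *Lama1* UMIs. It had 17960 UMIs in all, 11 of *Dcn*, 2 of *Vtn* and *Rgs5* and 36 of the astrocyte transporters. Without it library 3 stood at 265 CPM for *Col4a5*, 146 for *Col4a6* and 419.6 for *Lama1*, still above the pericyte levels. In the 30 Dcn cells with at most 5 astrocyte transporter UMIs the levels were 78.4, 198 and 223 CPM for *Col4a5* (log2 0.58, edgeR adjusted p = 0.709), 65.3, 329.7 and 102 for *Col4a6* (log2 1.48, edgeR adjusted p = 0.00226) and 13.1, 290.1 and 183 for *Lama1* (log2 4.31, edgeR adjusted p = 9.02e-15).

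*Lama1* was the laminin chain that set Dcn cells apart. The alpha 1 chain had 148, 696 and 689.7 CPM in Dcn cells against 7.49, 6.38 and 7.16 in pericytes (log2 5.98 ± 0.36 (SE), edgeR adjusted p = 3.45e-17), with UMIs in 17 of the 41 cells. *Lama2* (1357, 1346 and 1136 CPM), *Lamb1* (86.4, 99.4 and 102), *Lamb2* (271, 108 and 102), *Lamc1* (814, 488 and 666) and *Lamc3* (308, 334 and 368) did not pass against pericytes. *Lama4* was lower at 358, 235 and 109.7 CPM (log2 -0.74, edgeR adjusted p = 0.0227), with library 1 at the pericyte level, and the call was lost with DESeq2's size factors. It was also not called with DESeq2, without library 2 or 3, or without hashtag doublets. The same held without barcodes of more than 1 class and without cells of over 5 astrocyte transporter UMIs. *Lama5* had no UMI in 319329 UMIs of Dcn cells. *Col8a1* was the other chain called lower, at 24.7, 18.1 and 39.2 CPM (log2 -1.79, edgeR adjusted p = 0.00632). It was not called with DESeq2, without library 2, without hashtag doublets or without cells of over 5 astrocyte transporter UMIs. *Col6a1* and *Col6a2*, chains of the microfibrillar collagen VI, were called higher at 0, 36.1 and 86.2 and 37, 27.1 and 39.2 CPM, but *Col6a3*, the chain they need, failed the filter on low counts with 3 UMIs. The others called higher were *Col23a1* (148, 361 and 204 CPM), *Col26a1* (61.7, 90.3 and 118), *Col16a1* (0, 54.2 and 23.5) and *Col11a1* (0, 27.1 and 23.5). The library 3 cell with most of the *Col4a5* held 19 of the 26 *Col23a1* UMIs of its library, 9 of the 15 of *Col26a1* and 10 of the 16 of *Col13a1*. Without it library 3 stood at 63.8 CPM for *Col23a1*, 54.7 for *Col26a1* and 54.7 for *Col13a1*. Of the 19 calls, *Col1a1*, *Col4a6*, *Col12a1*, *Col18a1* and *Lama1* passed in every alternative, as did *Col13a1* wherever it could be tested. In the 30 cells with at most 5 astrocyte transporter UMIs, *Col12a1* had 0, 12 and 2 UMIs in libraries 1, 2 and 3, and *Col18a1* 1, 13 and 0. Both calls then rested mostly on library 2. Of the 40 *Col18a1* UMIs in all Dcn cells, 14 lay in 1 cell.

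Dcn cells were also described by their number of *Dcn* UMIs, pooled over libraries between which the subsets fell unevenly. The library 3 cell with 67 *Col4a5*, 47 *Col4a6* and 42 *Lama1* UMIs is in the subset with 6 or more *Dcn* UMIs. The 18 cells with 6 or more *Dcn* UMIs had 992 CPM of *Lama1*, 943 of *Col4a5*, 728 of *Col4a6*, 402 of *Col1a1*, 368 of *Col3a1* and 319 of *Col15a1*. The 23 cells with 3 to 5 *Dcn* UMIs had 194, 85.6, 114, 57.1, 62.8 and 0 CPM in the same order, a count of 0 allowing up to 17.1 CPM. *Col4a3* had 103 CPM in the cells of few *Dcn* UMIs and no UMI in those of many, which allows up to 20.8 CPM. *Col4a1* (652 and 679 CPM) and *Lamc1* (645 and 639.5 CPM) are given for the same subsets, whose difference was not tested. The split uses the gene of the class rule, and 16 of the 18 and 21 of the 23 cells had at least 10 UMIs of *Vtn* and *Rgs5*.

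Set against each other, Dcn and Acta2 cells differed in *Lama1*, *Lama2*, *Lama5*, *Col1a1*, *Col1a2* and *Col3a1*, among others. In Dcn cells 13 chains were higher and 3 lower than in Acta2 cells, against 3.06% of all genes called higher and 2.61% lower. The median log2 fold change was 1.60 over the chains, or 1.03 with chains at 0 set at their bound, and 0.20 over all genes. *Lama2* was higher in Dcn cells (1357, 1346 and 1136 CPM against 433, 542 and 170.4, log2 1.88 ± 0.42 (SE), edgeR adjusted p = 0.0022), and *Lamb2* was lower (271, 108 and 102 against 410.0, 542 and 341, log2 -1.5, edgeR adjusted p = 0.00182). *Lama5* passed as lower in Dcn cells, where it had no UMI, at 159, 36.2 and 79.5 CPM in Acta2 cells. It was not called without hashtag doublets. Chains without a UMI in Acta2 cells were higher in Dcn cells by at least 37.6-fold for *Lama1*, 14.4-fold for *Col1a1*, 13.6-fold for *Col3a1*, 9.77-fold for *Col15a1* and 6.37-fold for *Col13a1* and *Col26a1*, against the floor of 3 UMIs over the class. Those with UMIs in both classes that passed were *Col4a5* (log2 2.81), *Col4a6* (2.87), *Col1a2* (2.16), *Col12a1* (4.62), *Col23a1* (5.56) and *Lamc1* (1.03). Without the cells of over 5 astrocyte transporter UMIs, the calls of *Col4a5* (log2 1.10, edgeR adjusted p = 0.304), *Col4a6* (1.63, adjusted p = 0.0542) and *Col12a1* (3.54, adjusted p = 0.113) were lost, and *Col13a1*, *Col15a1* and *Col26a1* were not called. That of *Lamb2* was lost without hashtag doublets (log2 -1.17, edgeR adjusted p = 0.0585), and that of *Lamc1* in several alternatives. *Col9a3* was the remaining chain called lower, and its call was lost without the *Ttr*-rich cell. Without library 3, 8 chains were higher and 2 lower. Without the *Ttr*-rich cell, 14 were higher and 2 lower. Since calls over all genes in these settings are not given, it is not shown whether the changes are particular to the chains.

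The proteins that assemble, bind and cut these chains were counted in 5 lists. In pericytes against astrocytes, 9 of 11 tested basement membrane partners were higher and 2 lower. *Nid1*, the nidogen that links laminin to collagen IV, had 644, 627 and 644 CPM in pericytes and 0.548, 0.332 and 1.15 in astrocytes, whereas *Smoc1*, a calcium-binding matrix protein, had 0.234, 0 and 0.826 and 35.1, 36.8 and 34.4. The third with the largest change was *Tinagl1* (log2 7.15 ± 0.46, SE). Of 23 genes of collagen folding, cross-linking and processing, 16 were higher and 5 lower, led by *Pcolce*, the enhancer of procollagen cleavage (log2 7.04 ± 0.15), *P3h2* (5.26 ± 0.24) and *P4ha3* (-5.06 ± 0.38). Of 13 receptors, 8 were higher and 5 lower, with *Itga1*, the integrin alpha 1 collagen receptor (7.77 ± 0.47), and *Mrc2*, which takes up collagen (7.41 ± 0.12), higher and *Itga6*, a laminin receptor chain (-6.35 ± 0.17), lower. Of 11 matrix proteases and inhibitors, 5 were higher and 4 lower, with *Timp4* at 232, 231 and 241 CPM in astrocytes and 1.64, 1.45 and 3.03 in pericytes and *Ctsk* (4.99 ± 0.25) and *Mmp15* (2.59 ± 0.12) higher. Of 13 small proteoglycans and fibrillar partners, 8 were higher and 2 lower, led by *Postn* (9.79 ± 0.40), *Aspn* (9.19 ± 0.20) and *Bgn* (9.15 ± 0.30). The shares called stand beside the 38.3% and 40.8% of all genes.

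Between the vascular classes, the shares called in either direction stood beside 8.24% of all genes for Acta2 cells against pericytes, 6.04% for Dcn cells against pericytes and 5.67% for Dcn against Acta2 cells. Of the lists in the order above, 27.3, 17.4, 15.4, 18.2 and 30.8% were called in Acta2 cells against pericytes, 18.2, 8.7, 7.69, 18.2 and 23.1% in Dcn cells against pericytes, and 9.09, 4.35, 15.4, 9.09 and 15.4% in Dcn against Acta2 cells. Against pericytes, Acta2 cells had 1 basement membrane partner higher (*Tinagl1*, log2 2.97 ± 0.57, SE) and 2 lower (*Nid1*, -1.77 ± 0.31, and *Fbln1*, -3.02 ± 0.78). They had *Bcam*, the receptor of the laminin alpha 5 chain, at 467, 687 and 432 CPM against 188, 191 and 190.4 (log2 1.30 ± 0.21), and *Mrc2* lower (-2.04 ± 0.44). Both protease inhibitors *Timp2* (3.59 ± 0.42) and *Timp3* (1.90 ± 0.34) were higher. In the folding list 2 genes were higher and 2 lower, the 3 with the largest change being *Adamts14* (5.32 ± 1.25), *Plod2* (-3.23 ± 0.76) and *Plod1* (-2.25 ± 0.54), and of the small proteoglycans 4 were lower, *Bgn* (-1.31 ± 0.31), *Tnxb* and *Omd* among them, the last pair without a UMI in Acta2 cells. In Dcn cells against pericytes the counts of higher genes were 2, 2, 1, 2 and 3 over the lists in the order above, and none was lower. They included *Fbln5*, *Smoc1*, *Loxl1*, *Itga3* and *Eln*, each on at most 16 UMIs in Dcn cells, *Pcolce* (log2 1.13 ± 0.24), *Mmp19* (3.98 ± 0.95), *Timp3* (1.27 ± 0.34), *Thbs2* (2.45 ± 0.65) and *Lum*, the fibroblast proteoglycan lumican, at 37, 99.4 and 219 CPM against 0, 0 and 0.275. Between Dcn and Acta2 cells, *Nid1* (1.16 ± 0.36), *Plod1* (2.20 ± 0.64), *Mrc2* (2.02 ± 0.52), *Lum* and *Tnxb* were higher in Dcn cells and *Bcam* (-1.88 ± 0.31) and *Timp2* (-2.18 ± 0.53) lower. All values of Acta2 cells for these lists include the *Ttr*-rich cell.

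Co-detection in pericyte barcodes was set against the product of the separate shares of each pair. Hashtag doublets were kept in. Before thinning, 384, 537 and 342 of the 860, 649 and 702 pericytes of libraries 1, 2 and 3 remained without them. The ratio has little room above 1 where a gene is in most cells, so that pairs of common and of rare genes are not compared by it. *Col4a1* was detected in 85.2, 85.0 and 86.3% of the pericytes of libraries 1, 2 and 3, and *Col4a5* in 18.4, 19.4 and 21.8%. In cells thinned to 3000 UMIs, *Col4a1* and *Col4a2* were both detected in 53.3, 53.5 and 58.1% of the pericytes of libraries 1, 2 and 3, 1.04, 1.04 and 1.03 times the product of their shares. For *Lamc3* and *Lama4* this ratio was 0.993, 1.01 and 0.961, and for *Col4a1* and *Lamc1* 0.994, 1.00 and 1.01. For *Col4a3* and *Col4a4* it was 1.14, 1.14 and 1.26. *Col4a5* and *Col4a6* were detected together in 3.8, 3.62 and 5.02% of pericytes, 1.9, 1.49 and 1.87 times the product of their shares, on 30, 22 and 33 cells. These are descriptions of cells that share a library, without a test.

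The groups of mice were compared within pericytes and within astrocytes, with the cells of each mouse summed and mice as replicates. Hashtags assigned 903 pericytes (30 to 134 per mouse) and 1565 astrocytes (46 to 251 per mouse) to the 16 mice, and 20 chains were tested in pericytes among 5886 genes and 15 in astrocytes among 9625. No chain passed an adjusted p of 0.05 in edgeR in any of the 6 pairs of groups in either class, and DESeq2 called none. Of all genes, edgeR called 0% between FC and NoFC pericytes, 1.1% between NoFR and NoFC, 0.0849% between FR and NoFC, 0.595% between NoFR and FC, 0% between FR and FC, and 0.034% between FR and NoFR. In astrocytes it called 0.0104% between FR and NoFC and 0% for the other pairs. At an unadjusted p under 0.05 the chains were 2, 3, 1, 2, 0 and 2 in pericytes over the pairs in that order and 1, 1, 0, 3, 1 and 1 in astrocytes. Over all genes tested, the same threshold was met by 227, 495, 339, 452, 286 and 357 genes in pericytes and by 289, 555, 403, 346, 324 and 323 in astrocytes.

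*Col4a1* in pericytes was the chain nearest to a call. It stood at 655, 781, 756 and 781 CPM (TMM-normalized) in the 4 NoFC mice, 1107, 763, 739.5 and 902 in FC, 1019, 1043, 971 and 981 in NoFR and 811, 809, 831 and 952 in FR mice. All 4 NoFR mice lay above all FR mice, which lay above all NoFC mice, and FC mice overlapped every group. The share of all genes with such a separation is not given here. The fold change of NoFR against NoFC was log2 0.39 ± 0.11 (SE, edgeR adjusted p = 0.0865), and it passed with the library term left out (adjusted p = 0.0293) or without FC mouse 1 (adjusted p = 0.0254), while it was 0.23 (adjusted p = 0.856) with hashtag calls at a quantile of 0.95. By a 2-sided exact permutation test of the difference in means, NoFR against NoFC, FR against NoFC and FR against NoFR each had p = 0.0286, the smallest that 4 mice against 4 allow, and an adjusted p of 0.114 over the 12 comparisons of *Col4a1* and *Col4a2*. This permutation test takes no account of the library, and library 2 held no NoFR mice. With the library term, edgeR gave log2 0.20 ± 0.11 (SE, adjusted p = 0.902) for FR against NoFC. For FR against NoFR it gave log2 -0.19 ± 0.12 (SE, adjusted p = 0.86). Within library 1, with 2 mice of each group, the means were 718 CPM for NoFC mice, 935 for FC, 1031 for NoFR and 810.1 for FR. Within library 2 they were 756 for NoFC, 821 for FC and 831 for FR, and within library 3 they were 781 for NoFC, 976 for NoFR and 952 for FR. *Col4a2* had 390.3 ± 61.2 CPM (SD, n = 4 mice) in NoFC mice, 407 ± 111 in FC mice, 436 ± 50.7 in NoFR mice and 459 ± 94.2 in FR mice, and its exact permutation p was at least 0.286 in every pair.

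The other chains with an unadjusted p under 0.05 were spread over the pairs. In pericytes *Col3a1* had 86.6, 63.9, 116 and 89.5 CPM in NoFR mice and 37.2, 55, 44 and 57.9 in NoFC mice (edgeR log2 0.93 ± 0.30 (SE), adjusted p = 0.167), and set against FC its value was log2 0.80 ± 0.35 (adjusted p = 0.556). *Col8a1* had a log2 fold change of -0.72 ± 0.27 in NoFR against NoFC (edgeR adjusted p = 0.313) and of 0.65 ± 0.28 in FR against NoFR (adjusted p = 0.743). *Lamb1* in FC against NoFC, *Col4a4* in FR against NoFC, *Col26a1* in NoFR against FC and *Lamc1* in FR against NoFR completed the list in pericytes, with log2 fold changes of 0.37, -0.62, 0.99 and -0.29 and edgeR adjusted p of at least 0.642. In astrocytes *Col5a3* had 12.7, 15.4, 16.7 and 17.9 CPM in FC mice and 4.38, 8.73, 5.92 and 7.71 in NoFC mice, with log2 1.20 ± 0.37 and an edgeR adjusted p of 0.9999. *Col11a2* in NoFR against NoFC (log2 -0.75 ± 0.24), FC and FR, *Col5a3* in NoFR and FR against FC, and *Lama3* in NoFR against FC had edgeR adjusted p of at least 0.799. At 15.6 ± 2.22 CPM (SD, n = 4 mice) in FC and 11.3 ± 6.34 for *Lama3*, these astrocyte levels were low and spread widely between mice for *Lama3*. *Lama2* had no unadjusted p under 0.05 in either class. Of the genes in the 5 lists around the chains, *Timp3* in pericytes was the 1 called, lower in NoFR than in FC mice (log2 -0.76, edgeR adjusted p = 0.0426).

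**Figure D5:**
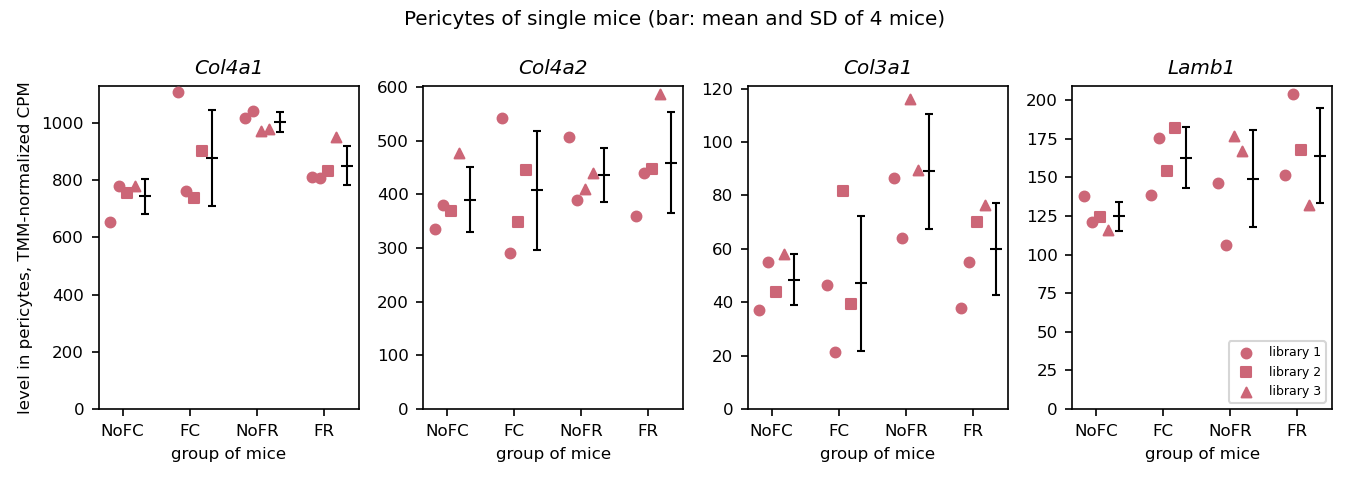
Level of *Col4a1*, *Col4a2*, *Col3a1* and *Lamb1* in the pericytes of single mice, in TMM-normalized CPM on an axis from 0, by group, with 1 point per mouse shaped by library and the mean and SD of 4 mice beside them. The 4 NoFR points of *Col4a1* lie between 971 and 1043 CPM, above all NoFC points.

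The other 21 chains stayed below a mean of 20 CPM in every class. In Dcn cells the mean was 18.7 CPM for *Col22a1*, 16.9 for *Col11a1*, 15.1 for *Col25a1*, 13.1 for *Col7a1* and 11.2 for *Col9a2*. All 6 *Col22a1* UMIs of library 3 lay in the Dcn cell that held most of the *Col4a5* of its library. In the class where each was highest, *Lama3*, *Col6a3* and *Col20a1* had means of 9.71, 8.64 and 5.62 CPM, and *Col5a1* and *Col8a2* of 3.79 CPM each. *Col6a4* had no UMI in any class. The others were *Col2a1*, *Col6a5*, *Col6a6*, *Col9a1*, *Col10a1*, *Col17a1*, *Col19a1*, *Col24a1* and *Lamb3*, each with a mean of at most 3.01 CPM in any class.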

How the data were processed

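The values are counts of UMIs per gene and barcode, deposited by the authors as 1 filtered matrix for each of 3 libraries. The file headers name Cell Ranger 7.0.0, whereas the labels and the study's methods name version 3.0, with the mouse build mm10 in both. The sources used here do not say whether intronic reads were counted. Free RNA was not removed and no doublets were called on transcripts. Every barcode could enter a class, and a minimum of 100 genes with a limit of 6% mitochondrial UMIs was tried as an alternative. Counts were summed by class and library and tested in edgeR 4.0.16 (R 4.3.3) by its quasi-likelihood test with TMM scaling, its default filter on low counts and the library as a block, since the classes of a library come from the same animals. The pairing is thus given by the design, and 4 classes share one estimate of the spread. For groups of mice, hashtag calls were made with HTODemux in Seurat 5.3.0 at a quantile of 0.99, single-mouse barcodes under the same cell filters were summed per mouse with at least 10 cells, and the library was a term of the fit. DESeq2 1.42.0, size factors in place of TMM, other filters and thresholds, and omission of each library or mouse were alternatives. The steps were tested on simulated data with changes put in at known genes. An adjusted p under 0.05 was the threshold, and a count of 0 was read as at most 3 UMIs. These floors cover counting error only. Genes named were those at a mean of 20 CPM or more in at least 1 class, those a comparison called, those at an unadjusted p under 0.05 between groups of mice, and up to 3 called genes with the largest change in each of 5 surrounding lists. *Col6a3*, *Col22a1* and the other low chains are named for completeness, and 1 gene is not reported here. The genes, lists and tests were chosen with earlier results of these data known. The files hold 0 columns of other samples, and no comparison columns of the authors.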

Additional observations from a re-analysis of the deposited data

Results flagged for a closer look

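In 2 of 60 groups of 4 mice, 1 mouse lay far from the others, by a test on the gap to the nearest value over the range that flags about 1 group in 20 by chance. *Lama2* in the astrocytes of FC mouse 3, from library 2 and 73 cells, was at 966 CPM, and the other 3 FC mice were at 796 to 822. *Col4a1* in the pericytes of FR mouse 4, from library 3 and 58 cells, was at 952 CPM, and the other 3 FR mice were at 809 to 831.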

How the results depend on the processing

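Between pericytes and astrocytes the calls were 28 higher and 6 to 7 lower without 1 library. For Acta2 cells against pericytes, 3 to 5 chains were higher and 5 to 6 lower without 1 library (6, 5 and 5 lower without libraries 1, 2 and 3), 2 were higher without hashtag doublets, and 5 were lower with DESeq2's size factors and 5 with DESeq2. For Dcn cells against pericytes, 10 to 17 were higher (17, 10 and 11) and 0 to 4 lower (4, 0 and 1) without 1 library. Without hashtag doublets 10 were higher and 0 lower, without Dcn and Acta2 cells of over 5 astrocyte UMIs 6 and 0, with DESeq2 0 were lower, without barcodes of more than 1 class 1 was lower, and without barcodes of 3 or more endothelial UMIs, an alternative chosen after seeing the data, 6 were lower. For Dcn against Acta2 cells, 8 to 14 were higher (14, 10 and 8) and 2 to 3 lower without 1 library, 0 were lower without hashtag doublets and 6 with stricter UMI limits. The doublet filter left 384, 537 and 342 pericytes, 6, 3 and 4 Acta2 cells and 6, 12 and 4 Dcn cells, and the cause of the other shifts was not tested. Beside these counts of chains the calls over all genes in the same settings are not given. Whether a shift is particular to the chains is therefore not shown. Without the replicate block the calls were 29 and 6, 4 and 7, 16 and 3, and 13 and 3 higher and lower over the 4 comparisons. In pericytes of NoFR against NoFC mice, 1 chain, *Col4a1*, was called without the library term and 0 to 1 without 1 mouse, the 1 being without FC mouse 1. The direction turned for *Lama2* in pericytes against astrocytes (-0.18 with DESeq2's size factors, -0.18 with DESeq2, -0.063 with stricter limits), for *Col9a3* in Acta2 cells against pericytes (-5.87 without doublets, -6.58 without endothelial barcodes) and in Dcn against Acta2 cells (0.092 and 7.76), which rest on 1 or no UMI in a class, and for *Lama3* in astrocytes of NoFR against FC mice (0.54 at a hashtag quantile of 0.95). A UMI was worth 11.4 to 36.2 CPM in an Acta2 library and 7.84 to 12.3 in a Dcn library, so that absence at lower levels was not detectable.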

Other observations

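The 2517 barcodes in no class, 848, 459 and 1210 in libraries 1, 2 and 3 with median depths of 789.5, 886 and 725 UMIs, carried collagens and laminins too. *Lama2* stood at 738, 849 and 695 CPM in them, *Lamc1* at 164, 222 and 182, and *Col4a1* at 169, 201 and 189. The *Lama2* level lay near that of astrocytes, and the *Col4a1* level between those of astrocytes and pericytes. Their summed blood markers reached 7299.7 CPM in library 1, and their ependymal and choroid plexus markers 3216, 26.8 and 193.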
